A study of Mus musculus with 24 samples.

Results

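Drug efflux at the blood-brain barrier depends on ATP-driven pumps in the luminal membrane of brain capillary endothelial cells, and the transcripts of 3 of them were followed here in every library. Abcb1a and Abcb1b are the mouse genes for P-glycoprotein, which exports lipophilic drugs and dyes, and Abcg2 encodes the breast cancer resistance protein, which works as a dimer and shares many substrates with P-glycoprotein. The genes were taken by symbol from the deposited table, which lists 53465 genes, and all 3 were found once. Brain endothelium was sorted on CD31 from C57BL/6J mice kept in a light-dark cycle, and each library came from a single animal. Controls carried Bmal1fl/fl alone, so both groups were homozygous for the floxed allele, and mutants were Bmal1fl/fl; Tie2cre animals. Tie2cre places Cre under the Tek promoter, which is active in endothelium and also in blood-forming cells. Zeitgeber time (ZT) counts hours from lights on, and 2 mice of each genotype were taken every 4 h, at 6 times from ZT2 to ZT22, giving 12 control and 12 mutant libraries. Mouse ages are not given in the sources used here, and both sexes were used.

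The genes were examined with a contrast in mind between a steady Abcb1a and a time-dependent Abcg2. The label steady did not hold for Abcb1a over all libraries. Abcg2 followed a 24-h wave when the mice of both genotypes were fitted together, while within a single genotype the edgeR cosine fit did not pass. Abcb1a had no 24-h wave, but its reads differed between time points, being higher at ZT6 and ZT18 than at the other times. The ZT6 and ZT18 libraries also held fewer reads from microglial and astrocyte markers than the rest. Abcb1b was far less abundant and showed no 24-h wave. None of the 3 genes differed between genotypes beyond the spread between mice.

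P-glycoprotein in humans comes from a single gene, whereas mice have a neighbouring pair. In the GENCODE annotation of GRCm38, Abcb1a (ENSMUSG00000040584) lies at chr5:8660077-8748575 and Abcb1b (ENSMUSG00000028970) follows at chr5:8798147-8866315, both on the plus strand. Abcg2 (ENSMUSG00000029802) lies at chr6:58584523-58695676, also on the plus strand. The main coding transcripts of Abcb1a and Abcb1b have 28 exons each and that of Abcg2 has 16. The coding sequences of Abcb1a and Abcb1b were both 3828 bases long and were identical at 88.0% of their 3819 aligned positions. Their longest exact match ran for 338 bases. Of all 150-base windows in the Abcb1b coding sequence, 5.82% occurred unchanged in Abcb1a, and of all 100-base windows 9.84% did, both being read lengths that the study's text gives. A read that falls wholly in the match cannot be given to one gene by its own sequence. The reads were sequenced in pairs, so a mate outside the match could still place it. How the study divided such reads is not given in the sources used here. The match is shown because it bears on how far the reads of this gene pair can be separated, and only coding sequence was compared. Its first 250 bases are printed from Abcb1a, exons 12 to 14, within chr5:8702267-8702856 with the introns removed, after the 30 bases before it, and capitals mark the 4 bases at which Abcb1b differs.
Abcb1a coding match: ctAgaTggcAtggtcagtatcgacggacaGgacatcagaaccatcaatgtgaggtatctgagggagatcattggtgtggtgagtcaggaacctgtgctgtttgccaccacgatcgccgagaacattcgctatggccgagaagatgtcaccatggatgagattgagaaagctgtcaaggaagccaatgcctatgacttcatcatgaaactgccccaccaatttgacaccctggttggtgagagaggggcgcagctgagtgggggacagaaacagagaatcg

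The 250 bases upstream of annotated starts (RefSeq, GRCm38.p6, plus strand) are shown next because the comparisons below concern transcript levels over the day. Both strands were searched for the E-box CACGTG and its variant CACGTT, bound by clock factors, the D-box TTATGNAA, bound by Dbp, Tef, Hlf and Nfil3, and the nuclear receptor half-site AGGTCA. The xenobiotic response element core GCGTG, the GC box GGGCGG and the CCAAT box CCAAT were searched too. Capitals mark every match. All 3 genes matched the table by symbol, and Abcg2 has 3 annotated starts, of which the first and the second are printed.
Abcg2 first start, chr6:58584283-58584532: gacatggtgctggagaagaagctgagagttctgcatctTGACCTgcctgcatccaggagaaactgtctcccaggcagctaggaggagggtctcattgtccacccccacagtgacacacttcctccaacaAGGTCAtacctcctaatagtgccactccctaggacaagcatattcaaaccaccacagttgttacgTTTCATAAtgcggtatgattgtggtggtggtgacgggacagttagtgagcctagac
Abcg2 second start, chr6:58596422-58596671: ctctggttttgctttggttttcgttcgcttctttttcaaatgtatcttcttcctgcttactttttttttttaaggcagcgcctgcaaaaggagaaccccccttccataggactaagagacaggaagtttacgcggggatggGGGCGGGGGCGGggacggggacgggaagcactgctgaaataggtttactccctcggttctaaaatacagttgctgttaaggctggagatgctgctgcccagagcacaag
Abcb1a, chr5:8566841-8567090: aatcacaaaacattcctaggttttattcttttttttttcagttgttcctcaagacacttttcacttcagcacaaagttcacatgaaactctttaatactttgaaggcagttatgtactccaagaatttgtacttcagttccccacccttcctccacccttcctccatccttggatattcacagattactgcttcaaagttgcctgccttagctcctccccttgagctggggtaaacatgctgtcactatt
Abcb1b, chr5:8797897-8798146: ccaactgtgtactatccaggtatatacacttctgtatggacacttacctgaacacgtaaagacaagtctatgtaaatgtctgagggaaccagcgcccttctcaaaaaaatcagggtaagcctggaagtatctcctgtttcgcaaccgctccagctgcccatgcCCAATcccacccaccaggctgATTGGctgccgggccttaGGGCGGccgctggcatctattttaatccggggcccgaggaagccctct
The window before the first Abcg2 start held 1 D-box, at chr6:58584477-58584484, which begins 56 bases before the start and reads on the minus strand. A D-box was present in 3.07% of the 32536 distinct mouse windows of this length. The same window held 2 AGGTCA half-sites, a motif found in 14% of windows. The window before the second start, where the main Abcg2 transcript begins, held 2 adjoining GC boxes, present in 33% of windows. The third window, at chr6:58640296-58640545 and not printed, held an AGGTCA half-site and GC boxes, with 5 motif matches in all. The Abcb1b window held 2 CCAAT boxes (33.8% of windows) and 1 GC box. No searched motif occurred in the Abcb1a window. That window belongs to a RefSeq start 92986 bases upstream of the nearest GENCODE start, and these data do not say which start was used. The E-box, present in 6.04% of windows, its variant (3.87%) and GCGTG (28.3%) were not in any printed window.

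Values are read counts that the study had already scaled between libraries, and the totals ranged from 6136404 to 6648311 reads per library. All 3 genes passed the study's filter, which asks for 5 reads in 6 or more libraries of a genotype, as did 15493 genes in all. Abcb1a averaged 11702 reads per library, the 36th highest mean among the genes tested. Abcg2 averaged 2532 reads and ranked 319th, and Abcb1b averaged 43.5 reads and ranked 10281st. Levels of different genes were compared per kilobase of annotated exon. On that scale Abcb1a stood at 2135 ± 302 reads per kilobase (SD, n = 24), Abcg2 at 311 ± 63.7 and Abcb1b at 5.45 ± 3.10. The order Abcb1a, Abcg2, Abcb1b held in each of the 24 libraries, because the lowest fold per kilobase was 5.05 for Abcb1a over Abcg2 and 20.9 for Abcg2 over Abcb1b. The 3 levels were therefore separated by more than their spread between mice. With the main coding transcript as the length instead, the mean fold of Abcb1a over Abcg2 was 5.42 in place of 7.05. Abcb1b moved more with that choice, to 10.1 ± 5.76 reads per kilobase, and the mean fold of Abcb1a over Abcb1b was 366 in place of 619.

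Marker genes describe what the libraries contained besides these pumps. The 10 endothelial markers, among them Pecam1, Cdh5 and Cldn5, summed to between 68026 and 112339 reads per library. The 8 microglial and macrophage markers summed to between 1056 and 1711 reads in the 8 libraries of ZT6 and ZT18, and to between 9305 and 25462 in the other 16, so that the sets did not overlap. The endothelial sum ran the other way, from 101990 to 112339 at ZT6 and ZT18 against 68026 to 98850 elsewhere, and so did that of pericyte and smooth muscle markers, with medians of 23116.5 and 13960.5 and overlapping ranges. Astrocyte marker sums were 4544 to 7507 against 10379 to 20672, oligodendrocyte marker sums were 2096 to 4351 against 5064 to 17719, and mitochondrial reads were 2.68% to 3.9% against 5.78% to 17.4%. Fewer endothelial cells and less RNA per endothelial cell cannot be told apart in such bulk libraries. The ZT6 and ZT18 libraries also carry 1 unbroken run of library numbers, so a difference between those times and the rest cannot be told apart from that numbering. A separate run of lower numbers holds 1 control library of ZT2 and the mutant libraries of ZT14. The i5 index, a tag of each library, was TA at ZT6 and ZT18 and AT at ZT14 and ZT22. At ZT2 and ZT10 it was TA in controls and AT in mutants. Genotype differences at ZT2 and ZT10 therefore cannot be told apart from the index, and time differences coincide with it in part. For the targeted gene, Arntl (Bmal1), reads ranged from 1 to 468 with a median of 166.5 in controls and from 81 to 354 with a median of 242.5 in mutants. Arntl was therefore not lower in libraries labelled mutant, and since counts over the whole gene include exons outside the floxed part, they do not check the deletion. The 3 choroid plexus markers reached 66743 reads in 1 control library of ZT22, against a control median of 6908.5, and the Abcg2 calls over both genotypes given below held without that library. Dbp, a direct clock output, fell by 1.26 on the log2 scale (SE 0.247) in mutants (edgeR adjusted p = 0.0115), and Per2, with a log2 amplitude of 1.51, followed the time labels with a fitted peak at ZT12.0 (edgeR adjusted p = 0.00380).

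Abcg2 was lowest at the start of the light phase and the end of the dark phase and highest just after lights off. Given as pairs of mice in order from ZT2 to ZT22, control reads were 1875 and 1744, 2471 and 2651, 2436 and 3147, 3194 and 3307, 2935 and 2709, and 1771 and 1980. In mutants the corresponding pairs were 2200 and 1760, 2603 and 2737, 2474 and 2613, 3019 and 3501, 2631 and 2941, and 2117 and 1944. The means at ZT14 were 1.80 times those at ZT2 in controls and 1.65 times those at ZT2 in mutants. Every ZT14 library exceeded every ZT2 and ZT22 library of both genotypes. That split was chosen with the pattern known, and the share of genes showing it was not counted. The 2 control ZT14 libraries had the highest mitochondrial shares of all libraries, 17.4% and 15.3%. Those of mutants at ZT14 had 7.89% and 10.7%, and any part of this in the Abcg2 values was not tested.

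**Figure D1:**
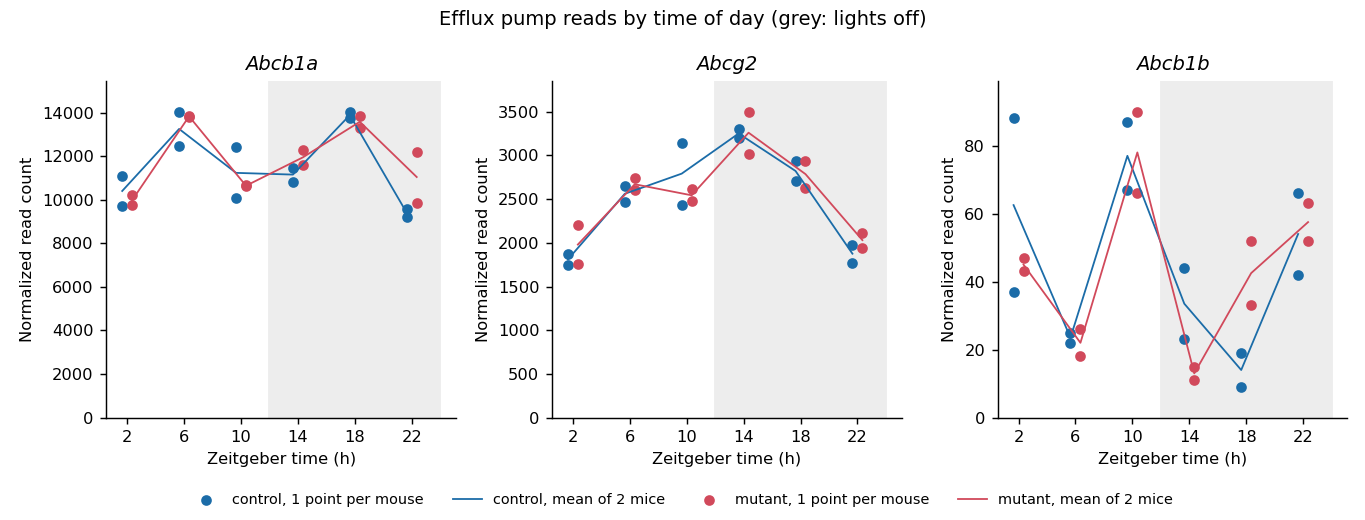
Normalized read counts of Abcb1a, Abcg2 and Abcb1b (vertical axes, each from 0) against Zeitgeber time in hours, with 1 point per mouse and lines through the means of 2 mice per genotype. Abcg2 is highest at ZT14 in both genotypes, Abcb1a is highest at ZT6 and ZT18, and Abcb1b stays between 9 and 90 reads.

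A 24-h cosine was fitted over both genotypes together. Abcg2 was picked with its time dependence in these same libraries known, so its p-values here and in the tests that follow describe the pattern and are not independent support for it. The cosine fit of Abcg2 passed (edgeR adjusted p = 0.000637). The fitted wave rose 0.40 above its mean on the log2 scale and was highest at ZT13.0. Of all genes tested, 0.503% passed this test. Abcb1a had a fitted log2 amplitude of 0.11 and Abcb1b of 0.30, with edgeR adjusted p-values of 1.00 for both. Without the ZT6 and ZT18 libraries, the edgeR adjusted p of Abcg2 was 0.000842. With the log2 marker level of other cell types as a covariate it was 2.60e-05, and with the series of library numbers 2.70e-05.

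The study's own rhythm test, meta2d, combines JTK_CYCLE with a Lomb-Scargle periodogram within a genotype, and calls a gene at q under 0.6. In controls 0.31% of genes were called, and Abcg2 was among them with q = 0.481 (exact JTK_CYCLE p = 0.000944, n = 12, with a JTK_CYCLE phase of ZT14). In mutants 0.0387% of genes were called, and Abcg2 was not (q = 1.00, combined meta2d p = 0.0310, n = 12, with the same phase). Abcb1a and Abcb1b had q = 1.00 in both genotypes. The control call of Abcg2 was lost when any of 9 of the 12 control mice was left out, with q from 0.206 to 1.00 over the 12 fits. When edgeR was fitted within one genotype, the cosine of Abcg2 did not pass among controls (adjusted p = 0.0845) or mutants (1.00). The time-point test passed in both (edgeR adjusted p = 0.00562 and 0.0323). A call in one genotype and not in the other does not show a difference, so the difference was tested directly. The interaction of genotype with the 24-h cosine passed for 0% of genes by edgeR, with 660 genes at an unadjusted p under 0.05, and by DESeq2 for 1 gene. For Abcg2 it gave edgeR adjusted p = 1.00, from an unadjusted edgeR p of 0.439. The targeted gene Arntl did not pass either (edgeR adjusted p = 0.141, unadjusted p = 9.1e-06). The test therefore does not show that the Abcg2 wave is the same in both genotypes.

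Abcb1a reads ran from 9215 to 14052 and, relative to their mean, varied less than those of Abcg2. The coefficient of variation over the 24 libraries was 14.2% for Abcb1a, 20.5% for Abcg2 and 56.9% for Abcb1b, the last of which includes the counting error of few reads. Abcb1a reads in the control pairs were, in the same order of times, 9734 and 11081, 12462 and 14052, 10074 and 12405, 10843 and 11477, 14023 and 13762, and 9595 and 9215. The mutant pairs gave 10225 and 9748, 13812 and 13858, 10625 and 10670, 11621 and 12284, 13304 and 13868, and 12220 and 9878. All 8 libraries of ZT6 and ZT18 lay above all 16 others, a split chosen after seeing the values, which 0.194% of genes tested showed. Their mean was 13643 ± 529 reads (SD, n = 8) against 10731 ± 1029 (SD, n = 16), a ratio of 1.27.

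With the 6 time points as separate levels, all 3 pumps passed the test, where 13.4% of all genes did. The edgeR adjusted p-values were 3.14e-06 for Abcg2, 0.00136 for Abcb1a and 0.0354 for Abcb1b. The call for Abcg2 held without the ZT6 and ZT18 libraries (adjusted p = 0.000509) and with other cell types (6.17e-05) or endothelial markers (4.99e-05) as a covariate, all by edgeR. The call for Abcb1a did not hold in any of those fits, with edgeR adjusted p-values of 0.679 without ZT6 and ZT18, 0.541 with other cell types and 0.442 with endothelial markers as a covariate. The first of these, chosen after seeing the data, takes out the very libraries in which Abcb1a was high, so its loss follows from its construction and does not qualify the call. The covariates carry much of the same split. The log2 marker level of other cell types was 4.58 to 5.08 at ZT6 and ZT18 and 5.86 to 6.83 elsewhere. Losses under the covariates therefore cannot tell time, library run and cell composition apart. Microglial, astrocyte, oligodendrocyte, endothelial and pericyte marker sums moved with the Abcb1a difference, and their part in it was not tested beyond those fits.

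**Figure D2:**
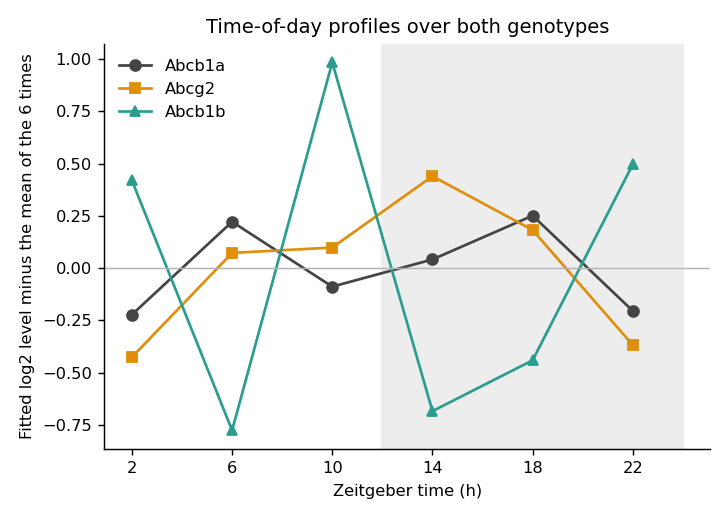
Fitted log2 level of each pump at each Zeitgeber time minus the mean of its 6 times, over both genotypes (24 libraries). Abcg2 rises to 0.44 at ZT14 and falls to -0.43 at ZT2, Abcb1a has 2 maxima, 0.22 at ZT6 and 0.25 at ZT18, and Abcb1b is highest at ZT10 (0.98).

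**Figure D3:**
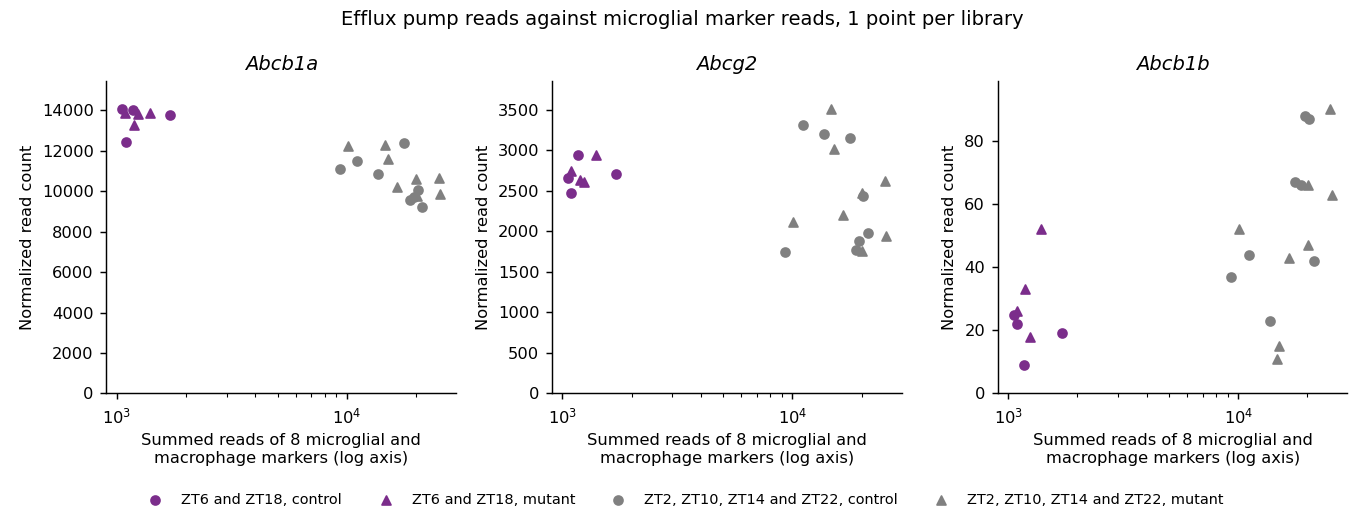
Normalized reads of each pump (vertical axes from 0) against the summed reads of 8 microglial and macrophage markers (log axis), 1 point per library, coloured by time and shaped by genotype. The 8 libraries of ZT6 and ZT18 sit at 1056 to 1711 marker reads and hold the highest Abcb1a counts, whereas their Abcg2 counts fall inside the range of the other 16.

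The ratio of Abcg2 to Abcb1a needs no scaling between libraries. Both terms come from the same library, so its total cancels, and the ratio is given as Abcg2 reads per 100 Abcb1a reads. It is described here without a test because the pair was chosen with its pattern known. Tests on counts relative to Abcb1a are given further below, only as alternatives. From ZT2 to ZT22, the ratio in control pairs was 19.3 and 15.7, 19.8 and 18.9, 24.2 and 25.4, 29.5 and 28.8, 20.9 and 19.7, and 18.5 and 21.5. In mutant pairs it was 21.5 and 18.1, 18.8 and 19.8, 23.3 and 24.5, 25.98 and 28.5, 19.8 and 21.2, and 17.3 and 19.7. The 4 libraries of ZT14 had higher ratios than the other 20, and the 4 of ZT10 came next. As background, 0.142% of all genes tested had a ratio to Abcb1a that was higher in all ZT14 libraries than in the other 20. The place of ZT10 was not part of that count. Nothing is read from the share, because both the pair and the time were picked with the pattern known.

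A cosine fitted to the ratio had a relative amplitude of 22.7% with a peak at ZT13.1 in controls, and of 17.6% with a peak at ZT12.8 in mutants. The spread between mice of one genotype and time was 6.73% and 7.12% of the mean ratio. At ZT6 and ZT18 the ratio was 19.9 ± 0.847 (SD, n = 8), inside the range from 15.7 to 21.5 of the ZT2 and ZT22 libraries. Abcg2 reads alone were higher at ZT6 and ZT18, from 2471 to 2941, than at ZT2 and ZT22, from 1744 to 2200. The share of genes with this split was not counted. The ratio thus stood above all its other values at ZT10 and ZT14, where every library had 23.3 or more. Averaged over all times the ratio was 21.8 ± 4.25 in controls and 21.5 ± 3.40 in mutants (SD, n = 12 each).

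**Figure D4:**
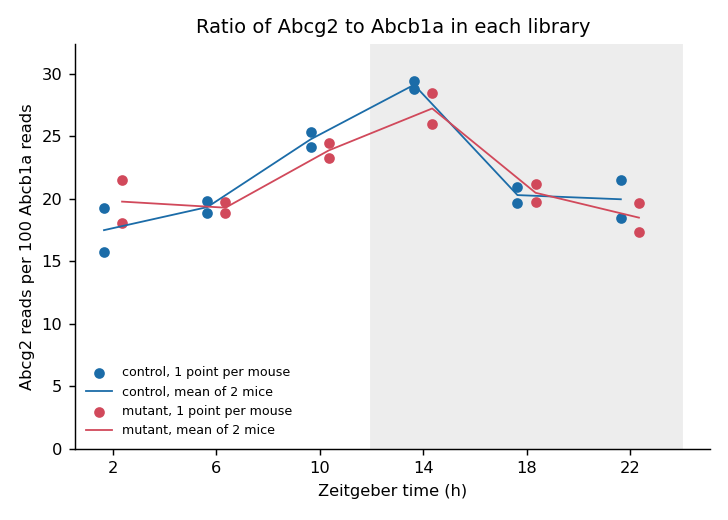
Abcg2 reads per 100 Abcb1a reads (vertical axis from 0) against Zeitgeber time in hours, with 1 point per mouse and lines through the means of 2 mice per genotype. The ZT14 points lie at up to 29.5 and those of ZT2, ZT6, ZT18 and ZT22 between 15.7 and 21.5.

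Abcb1b was counted at 9 to 90 reads per library. Exact Poisson 95% intervals, which cover counting error only, ran from 4.12 to 17.1 for the lowest count and from 72.4 to 111 for the highest. Counts in control pairs from ZT2 to ZT22 were 88 and 37, 22 and 25, 87 and 67, 23 and 44, 9 and 19, and 66 and 42. In mutant pairs they were 43 and 47, 18 and 26, 66 and 90, 15 and 11, 33 and 52, and 52 and 63. The 4 counts of ZT10 lay between 66 and 90, those of ZT6 between 18 and 26, and those of ZT14 between 11 and 44. Abcb1b amounted to between 0.0642% and 0.904% of the Abcb1a reads of the same library, so it was not a fixed share of them. Its time-point call was lost without the ZT6 and ZT18 libraries (edgeR adjusted p = 0.234), with other cell types (0.414) or endothelial markers (0.60) as a covariate, and when any of 11 of the 24 mice was left out. The antisense gene Gm5106 overlaps the start of Abcb1b, and the libraries keep strand.

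None of the 3 pumps differed in level between Bmal1fl/fl; Tie2cre mutants and controls, by edgeR or, for the 2 with an adjusted value, by DESeq2, and none had an unadjusted edgeR p under 0.05. The log2 difference, mutant minus control, was 0.04 (SE 0.060) for Abcb1a, 0.02 (SE 0.066) for Abcg2 and -0.04 (SE 0.295) for Abcb1b, with edgeR adjusted p-values of 0.961, 0.979 and 0.994. Of all genes tested, 0.271% differed between genotypes. The 95% interval of the mutant level relative to control, from the fitted error and 17 residual degrees of freedom, ran from 0.938 to 1.12 for Abcb1a, from 0.923 to 1.12 for Abcg2 and from 0.631 to 1.49 for Abcb1b. The interval for Abcb1b was the widest of the 3. Mean Abcb1a reads were 11560 ± 1766 in controls and 11843 ± 1604 in mutants (SD, n = 12 each), and mean Abcg2 reads were 2518 ± 570 and 2545 ± 489.

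Other pumps of the ABC family that export drugs were read for comparison, from a list of 8. Of these, 7 passed the filter, and Abcc2 had no read in any library. Abcc4, which exports organic anions and nucleotide analogues, was the most abundant, and it was the 1 of the 7 with a 24-h wave over both genotypes (log2 amplitude 0.28, fitted peak ZT13.3, edgeR adjusted p = 0.0353), where 0.503% of all genes passed. Its reads ranged from 2386 to 3165 at ZT2, with a median of 2672.5, and from 3354 to 5374 at ZT14, with a median of 4110.5. The 4 ZT14 libraries thus lay above the 4 ZT2 libraries, a split whose share among all genes was not counted. No control library exceeded 3811 Abcc4 reads at any time, so the ZT14 values above that, up to 5374, came from mutants. The Abcc4 time-point test also passed (edgeR adjusted p = 0.00153). By the time-point test 4 of the 7 passed, where 13.4% of all genes did, the others being Abcb4, Abcc3 and Abcc6. Abcb4, the phospholipid exporter next to Abcb1b, had a median of 2 reads at ZT6 and ZT18 against 55.5 elsewhere, and Abcc3 had 8 against 191. Both therefore were low in the libraries with few microglial marker reads, and that part was not tested. None of the 7 differed between genotypes by edgeR, with Abcb4 and Abcc10 at an unadjusted p under 0.05, and their median log2 difference was 0.05 against 0.00 for all genes.

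Of 25 listed regulators of efflux pump transcription, 21 passed the filter. The list was chosen with earlier results of these data known, so its counts are a description. The list included the aryl hydrocarbon receptor and its partner, nuclear receptors, the redox factor Nfe2l2 and the D-box factors. The xenobiotic receptors Nr1i2 (PXR) and Nr1i3 (CAR), with Pparg and Esr2, did not pass. Hlf, Tef and Dbp, 3 transcription factors that bind D-boxes, fell in mutants and were the 3 regulators of the 21 with a genotype difference (0.271% of all genes) and the 3 with a 24-h wave over both genotypes (0.503% of all genes). Hlf fell by 0.76 (SE 0.137), Tef by 0.87 (SE 0.158) and Dbp by the amount given above, all on the log2 scale, with edgeR adjusted p-values of 0.00447 for Hlf and 0.00458 for Tef. Their fitted peaks were at ZT10.9 for Hlf, ZT10.5 for Tef and ZT9.21 for Dbp. Nfil3, a repressor that also binds D-boxes, had a log2 difference of 0.78 (SE 0.320), mutant minus control, and did not pass (edgeR adjusted p = 0.574). The median log2 difference of the 21 regulators was 0.07. Time points passed for 7 of the 21, including Epas1, Lef1, Ctnnb1 and Foxo3, where 13.4% of all genes did. The summed reads of the list ran from 39824 to 46468 at ZT6 and ZT18 and from 28738 to 40856 elsewhere, and the part of cell composition in those calls was not tested. Of 6 membrane partners of P-glycoprotein, none differed between genotypes by edgeR (1, Cav2, at an unadjusted p under 0.05) or had a 24-h wave (0 at an unadjusted p under 0.05), and 5 passed the time-point test, where 13.4% of all genes did. Among those, Rdx, which anchors P-glycoprotein to actin, had 4252 to 5179 reads at ZT6 and ZT18 against 2734 to 4226 elsewhere. Msn, Cav1 and Cav2 also had higher medians at ZT6 and ZT18. Ezr, which passed too, ran the other way, with a median of 604 reads there against 844.5 elsewhere. The partners together summed to 12666 to 15029 reads at ZT6 and ZT18, the libraries with few microglial and astrocyte reads, and to 8921 to 12629 elsewhere, and that part was not tested. Over all genes the time-point calls fell from 2070 to 286 with other cell types as a covariate.

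The genes with profiles closest to each pump were ranked by the Pearson correlation of log2 CPM over the 24 libraries, among 7712 genes with a mean of 100 or more reads. These correlations share library, depth and cell composition, and are given as a description. For Abcg2 the closest were Mal (0.91), Bcl2l1 (0.90), Slc2a1 (0.89), Fnbp1l (0.89) and Sgms1 (0.89). Slc2a1, the glucose transporter of the barrier, is also on the endothelial marker list. For Abcb1a they were Sptan1 (0.95), Cavin2 (0.93), Ocln (0.90), Gimap6 (0.90) and Ppp1r2 (0.90), of which Ocln encodes the tight junction protein occludin. Sptan1 had 16719 to 18330 reads at ZT6 and ZT18 and 10859 to 16825 at other times. For Abcb1b the highest value was 0.77, for Grm3, followed by Rrbp1 (0.72), Slc38a10 (0.71), Zfp706 (0.71) and Mylip (0.71).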

How the data were processed

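RNA of CD31-sorted brain endothelium from 24 mice was sequenced as stranded total RNA. The authors aligned reads to GRCm38 with STAR 2.5.3a, merged lanes with SAMtools 1.3.1 (versions from the submitters' processing notes) and normalized with PORT, and deposited whole-number normalized read counts per gene. PORT equalizes read totals, so totals do not give the sequenced depth. No deposited column was without a sample. The rule, members and lists were chosen with earlier results of these data known.

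Genes reaching 5 reads in 6 or more libraries of a genotype were tested with edgeR 4.0.16 (TMM, quasi-likelihood, Benjamini-Hochberg over 15493 genes, calls at adjusted p under 0.05): genotype with time as a factor, a 24-h cosine with genotype, their interaction, and time as a factor. DESeq2 1.42.0 was an alternative. meta2d was rewritten in Python and called at q under 0.6. The edgeR tests and meta2d were tested on simulated data. Log2 CPM used a prior count of 2. Named genes were the 3 pumps, the 5 genes closest to each, clock genes as checks and the listed pumps, regulators and partners. For those, the members past a threshold or most abundant were named. Motifs and coding matches came from RefSeq promoters and GENCODE transcripts. Alternatives were other scalings, filters, covariates, tools and leaving out mice.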

Additional observations from a re-analysis of the deposited data

How the results depend on the processing

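The 24-h wave of Abcg2 over both genotypes passed in every alternative not scaled on Abcb1a, with edgeR or DESeq2 adjusted p-values from 3.71e-08 to 0.00386, and its time-point call likewise, from 1.08e-16 to 0.000509. Relative to Abcb1a, a gene that itself differed between time points, the wave gave 0.0158. The Abcb1a time-point call failed without ZT6 and ZT18 (adjusted p = 0.679), the libraries that carry the difference, and with other cell types (0.541) or endothelial markers (0.442) as a covariate, and passed with 0.000375 to 0.00417 when a mouse was left out. For Abcb1b it failed in the same 3 fits (0.234, 0.414 and 0.60) and with the i5 index as a covariate (0.0753), and ranged from 0.0136 to 0.0857 without single mice. Under 10 or more reads in every library Abcb1b was tested only by meta2d in mutants. DESeq2 gave Abcb1b no adjusted p for genotype and the 24-h wave. The control meta2d call of Abcg2 ranged over q from 0.206 to 1.00 without single mice, and was lost relative to Abcb1a (q = 0.729) and in the edgeR cosine fit (adjusted p = 0.0845, or 0.148 with the replicate block). In mutants the edgeR time-point fit passed (adjusted p = 0.0323). The cause was not tested.

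Genotype differences, none of them called, changed sign as follows on the log2 scale. Abcb1a reached -0.0014 with other cell types and -0.0098 with endothelial markers as a covariate, Abcb1b reached 0.048 with the i5 index and 0.098 with other cell types, and Abcg2 reached -0.012 relative to Abcb1a. Without single mice they ran from 0.0060 to 0.061 for Abcb1a, -0.19 to 0.078 for Abcb1b (-0.41 without ZT6 and ZT18, its furthest value) and -0.0069 to 0.057 for Abcg2. The ratio's amplitude moved by less than the spread between mice in every fit, from 20.3% to 25.3% in controls and 14.5% to 21.5% in mutants without single mice.

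Counts of called genes moved more. For genotype, 42 became 99 by DESeq2, 141 without a filter, 7 with the i5 index and 25 with other cell types, and 25 to 68 without single mice. The i5 index coincided with genotype at ZT2 and ZT10, as given above. For the 24-h wave, 78 became 44 relative to Abcb1a, 125 by DESeq2, 231 without a filter and 120 with other cell types. For its genotype difference, 0 became 52 without a filter, 5 without ZT6 and ZT18, and 1 relative to Abcb1a, by DESeq2, or with the i5 index, other cell types, endothelial markers or number series as a covariate, and 0 to 1 without single mice. For time points, 2070 became 3769 relative to Abcb1a, 1041 with the i5 index, 286 with other cell types, 804 with endothelial markers and 176 without ZT6 and ZT18. For meta2d in controls, 48 became 14 by the edgeR cosine, 4 with the replicate block and 906 by edgeR time points, and 0 to 82 without single mice. In mutants, 6 became 24 after TMM scaling, 0 relative to Abcb1a, 43 under the stricter filter, 0 by the edgeR cosine with or without the replicate block and 876 by edgeR time points, and 0 to 24 without single mice.

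Replicate numbers did not pair the mice, since correlations of same-numbered deviations ran from -0.0087 to 0.015 over the 6 times, and the replicate block changed no call for the 3 pumps in any edgeR test. The fits with endothelial markers and the time-point fit without ZT6 and ZT18 were chosen after seeing the data. With 2 mice per time and genotype, and about 44 reads, Abcb1b is the least certain of the 3.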
